A study of Mus musculus with 2 samples.

Results

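The genes described here are 30 genes of cholesterol and fatty acid synthesis, taken by their symbols from the 31055 gene features of the expression matrices. All 30 were found. They fall into 7 enzymes of the mevalonate arm, 12 enzymes from squalene to cholesterol, 4 regulators or sterol carriers, and 7 genes of fatty acid synthesis and desaturation. Transcripts were measured by droplet single-cell RNA sequencing of CD45+ leukocytes, CD45 being a surface protein of blood-derived cells. FVB mice, a laboratory strain, carried the subcutaneous squamous cell carcinomas that these cells were sorted out of, and had no treatment. Each tumour grew after coinjection of a pair of carcinoma lines, CIT6 (marked by YFP) and CIT9 (marked by RFP). Both samples, replicate 1 and replicate 3, belong to this 1 group, and the position barcodes that light had written on the cells were not used here. Whether these are tumours of different animals is not stated in the labels, which also give no age. With no second condition, each comparison sets 1 cell class against another within both tumours. The p-values measure only how far class differences vary between these samples. That spread is estimated over all classes of a fit and shared in part over genes.

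Cells build cholesterol from acetyl-CoA through mevalonate, isoprenoid units, squalene and a series of sterol intermediates, and they build fatty acids from the same precursor. The transcription factor SREBP2, encoded by Srebf2, drives the cholesterol genes when sterols are low, and SREBP1, encoded by Srebf1, drives mostly the fatty acid genes. Insig1 holds the SREBPs back in the endoplasmic reticulum. When sterols are plentiful, the liver X receptors (Nr1h3 encodes LXRα) turn on export genes such as Abca1, and tissue macrophages are known for handling sterol taken up from dying cells.

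Replicate 1 gave 4632 cells and replicate 3 gave 6371 cells, with medians of 16461.5 and 20753 UMIs a cell. A UMI, or unique molecular identifier, stands for 1 captured transcript, and the whole matrices held 89040909 and 170328781 gene UMIs. Levels are given as counts per 1000000 (CPM), the UMIs of a gene in all cells of a class in 1 tumour per 1000000 gene UMIs of that class. Wherever a pair of levels follows, the value of replicate 1 stands before that of replicate 3. In such sums, fewer cells of a state and less RNA per cell cannot be told apart. The libraries shared 9 cell barcodes, where a random draw from the listed barcodes gives 4.77. Free RNA, read from barcodes under 100 UMIs, held 405 and 416 CPM of the 19 cholesterol enzymes in sum.

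Cells were assigned to classes by fixed marker genes, none of which is among the 30. The gates left 2725 and 2834 non-dividing macrophages, 119 and 462 dividing macrophages, 102 and 402 monocytes, and 331 and 35 neutrophils. They also left 52 and 59 type 2 conventional dendritic cells (cDC2s), 11 and 155 plasmacytoid dendritic cells (pDCs), 15 and 20 activated dendritic cells, and 39 and 245 CD8 T cells. The 6 Macrophage markers summed to 16840.3 and 16608 CPM in macrophages, the 5 Monocyte markers to 3185 and 2678 CPM in monocytes, and the 5 pDC markers to 7484 and 7002 CPM in pDCs. Every one of these markers was detected in its own class in both tumours.

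Promoters are shown for 4 members that were higher together in a pair of macrophage subsets, Idi1, Cyp51, Insig1 and Fasn, and for Lbr. Lbr was not called in those subsets. It was higher in dividing than in non-dividing cells, and also in neutrophils than in monocytes. Each window runs from 250 bases before to 50 bases after the annotated start, on the gene's own strand, from RefSeq on GRCm38.p6 (mm10). Capitals mark matches on either strand to CCAAT, the core of NF-Y sites, to CACNCCAC, a core of sterol regulatory elements, or to CACGTG, the E-box that SREBP1 also binds. In the Fasn window the last run of capitals holds CCAAT on both strands with shared bases.
Idi1, chr13:8885356-8885655, plus strand: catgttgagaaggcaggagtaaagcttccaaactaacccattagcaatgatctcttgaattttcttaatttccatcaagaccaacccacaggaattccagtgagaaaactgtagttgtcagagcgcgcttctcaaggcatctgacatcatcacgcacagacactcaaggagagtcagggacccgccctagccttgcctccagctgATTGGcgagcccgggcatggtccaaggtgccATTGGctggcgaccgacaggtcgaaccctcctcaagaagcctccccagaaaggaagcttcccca
Cyp51, chr5:4104648-4104947, minus strand: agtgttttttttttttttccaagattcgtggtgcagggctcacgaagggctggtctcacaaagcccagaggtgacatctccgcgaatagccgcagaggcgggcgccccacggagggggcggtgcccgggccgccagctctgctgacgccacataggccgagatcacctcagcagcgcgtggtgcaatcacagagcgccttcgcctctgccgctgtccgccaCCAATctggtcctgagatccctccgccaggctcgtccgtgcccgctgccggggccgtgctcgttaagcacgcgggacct
Insig1, chr5:28071162-28071461, plus strand: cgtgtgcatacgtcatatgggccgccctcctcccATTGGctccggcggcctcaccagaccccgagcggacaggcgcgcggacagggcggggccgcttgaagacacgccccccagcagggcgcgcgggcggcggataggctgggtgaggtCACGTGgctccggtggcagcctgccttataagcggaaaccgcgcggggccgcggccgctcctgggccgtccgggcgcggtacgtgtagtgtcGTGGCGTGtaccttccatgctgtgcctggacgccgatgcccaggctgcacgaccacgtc
Fasn, chr11:120824498-120824797, minus strand: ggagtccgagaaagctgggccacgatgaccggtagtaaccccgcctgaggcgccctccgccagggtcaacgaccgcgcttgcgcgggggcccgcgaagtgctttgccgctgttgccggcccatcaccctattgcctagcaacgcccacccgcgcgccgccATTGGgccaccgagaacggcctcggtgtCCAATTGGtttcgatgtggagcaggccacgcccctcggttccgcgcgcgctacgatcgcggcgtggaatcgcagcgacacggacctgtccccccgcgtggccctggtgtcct
Lbr, chr1:181842352-181842651, minus strand: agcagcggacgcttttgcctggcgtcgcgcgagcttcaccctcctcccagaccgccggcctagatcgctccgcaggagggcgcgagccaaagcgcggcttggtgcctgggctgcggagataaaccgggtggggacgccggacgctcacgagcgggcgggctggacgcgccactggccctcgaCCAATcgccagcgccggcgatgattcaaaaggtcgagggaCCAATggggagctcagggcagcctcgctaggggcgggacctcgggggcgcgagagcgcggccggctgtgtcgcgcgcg

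Of the 30 members, 23 had a promoter in the RefSeq table, and 19 of these held CCAAT, which is 82.6% against 41.1% of 27025 genes. The pattern CACNCCAC lay in 3 of the 23, Insig1, Hmgcs1 and Acat2, which is 13.0% against 7.12% of all genes. CACGTG lay in 4 of the 23, Insig1, Dhcr7, Hsd17b7 and Sc5d, which is 17.4% against 8.09% of all genes. The Insig1 window held all 3 patterns. A match describes these letters only.

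Of the 19 classes that reached 8 cells in both tumours, pDCs had the highest summed level of the 19 cholesterol enzymes. They reached 1065 CPM (95% exact Poisson interval 898 to 1254) in replicate 1 and 1520.1 CPM (1469 to 1572) in replicate 3. Activated dendritic cells came next, with 783 CPM (669 to 911) and 828 CPM (745 to 918), so that the pDC interval lay apart in replicate 3 and overlapped theirs in replicate 1. Such intervals cover counting error only.

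Dividing cDC2s had 669 and 596 CPM, cDC2s 619 and 618 CPM, and collagen-expressing cells 634 and 392 CPM. Dividing macrophages had 563 and 481 CPM and monocytes 504.5 and 542 CPM, so that the order in the middle differed between the tumours. Macrophages had 421 and 432 CPM and regulatory T cells 439 and 449 CPM. NK cells had 258 and 293 CPM and CD8 T cells 252 and 303 CPM, with intervals that overlap in both tumours. Neutrophils had 223 and 319 CPM. The intervals of dividing cDC2s and cDC2s overlapped in both tumours. Those of cDC2s (572 to 668 in replicate 1 and 578 to 661 in replicate 3) lay below those of activated dendritic cells in both tumours. This order held for the mevalonate arm only, and in replicate 1 it came mostly from Pmvk, as given below. The enzymes from squalene on summed to 145 and 252 CPM in activated dendritic cells, against 322 and 307 CPM in cDC2s.

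**Figure D1:**
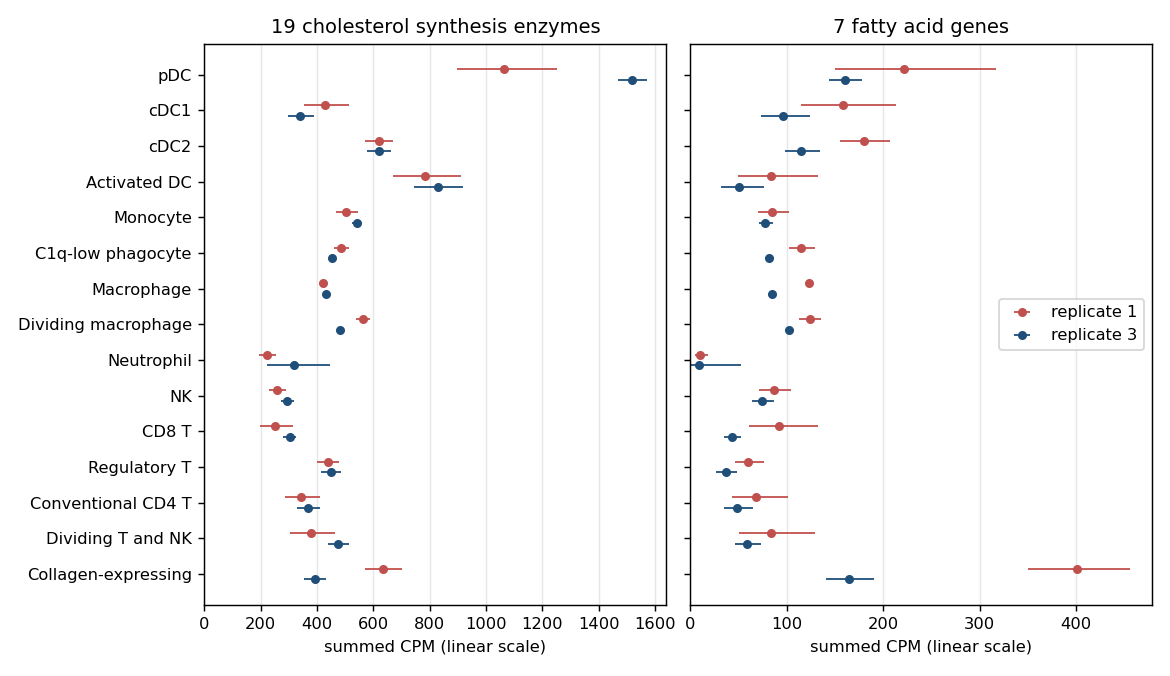
Summed levels of the 19 cholesterol synthesis enzymes (left) and the 7 fatty acid genes (right) in 15 of the classes, in CPM on a linear scale; points are the sums of 1 tumour (red, replicate 1; blue, replicate 3) and bars are 95% exact Poisson intervals. pDCs stand at 1065 and 1520.1 CPM for cholesterol enzymes, the highest points of each tumour, and neutrophils stand at 9.92 and 9.38 CPM for fatty acid genes.

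The regulators had unlike patterns over the classes. Srebf2 was highest in pDCs, with 163 and 118 CPM, and in cDC1s, with 144 and 104 CPM, and it had 23.7 and 21.7 CPM in NK cells. Insig1 was also highest in pDCs, with 126 and 139 CPM, ahead of monocytes with 78.9 and 74.7 CPM. Srebf1 had 26.4 and 28.6 CPM in collagen-expressing cells, its highest level, 20.05 and 19.2 CPM in macrophages, 3.97 and 0 CPM in neutrophils and 3.52 and 0 CPM in dividing cDC2s.

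Among the enzymes, Idi1, which interconverts the isoprenoid units, had 111 and 153 CPM in pDCs and 69.9 and 160.1 CPM in activated dendritic cells. Leaving out neutrophils and B cells, its lowest levels were 5.64 CPM in conventional CD4 T cells of replicate 1 and 11.4 CPM in collagen-expressing cells of replicate 3. Sqle, squalene epoxidase, had 29.6 and 67.8 CPM in pDCs, 47.4 and 32.4 CPM in collagen-expressing cells, and 4.08 and 1.81 CPM in NK cells. Hmgcs1, which makes HMG-CoA, had 37.0 and 78.5 CPM in pDCs, 32.6 and 54.9 CPM in activated dendritic cells and 13.9 and 17.2 CPM in NK cells. For Idi1 and Sqle each pDC value lay above each cDC2 value, and both NK values of Sqle lay below those of every other class but neutrophils and B cells.

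Fatty acid genes followed another order. The 7 genes summed to 401 and 164 CPM in collagen-expressing cells, 208 and 209 CPM in the few B cells, 222 and 160 CPM in pDCs, 180 and 115 CPM in cDC2s and 123 and 85.1 CPM in macrophages. Fasn, the fatty acid synthase, had 35.3 and 27.1 CPM in cDC2s, 29.4 and 24.0 CPM in cDC1s, 7.51 and 9.05 CPM in macrophages and 7.40 and 6.73 CPM in pDCs. Fads1, the delta-5 desaturase of polyunsaturated fatty acids, had 67.8 and 59.0 CPM in dividing C1q-low phagocytes, 49.9 and 50.6 CPM in dividing macrophages, and at most 4.08 CPM in NK, CD8, conventional CD4 and regulatory T cells. Fasn and Fads1 thus stood high in different classes.

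Scd1 and Scd2 are paralogous stearoyl-CoA desaturases. Scd1 had no UMI in CD8, conventional CD4, regulatory and other T cells or neutrophils of either tumour, and 1.39 and 0.438 CPM in macrophages. Its highest level was 166 and 191 CPM in B cells, from 8 and 11 UMIs in 12 and 8 cells. Collagen-expressing cells had 45.7 and 28.6 CPM of Scd1, cDC1s 18.4 and 8.01 CPM, and activated dendritic cells 37.3 and 4.57 CPM. Free RNA held 23.7 and 2.45 CPM of Scd1, above macrophages in both tumours and above cDC1s in replicate 1. Collagen-expressing cells and activated dendritic cells lay above it in both tumours, and cDC1s in replicate 3. The share of free RNA in the cells was not measured, so its part in these levels was not tested. Scd2 was found in every class but neutrophils and B cells of replicate 3, with 221 and 80.1 CPM in collagen-expressing cells and 118 and 75.4 CPM in pDCs. The 3' ends of paralogues can share reads, and how such reads were counted is not given in the sources used here.

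Over the 17 classes other than neutrophils and B cells, levels spanned wide ranges. Srebf2 ran between 23.7 and 163 CPM in replicate 1 and between 21.7 and 118 CPM in replicate 3, Insig1 between 8.33 and 126 CPM and between 16.2 and 139 CPM. Hmgcs1 ran between 8.46 and 54.5 CPM in replicate 1 and between 14.9 and 78.5 CPM in replicate 3, with its lowest levels in conventional CD4 T cells and in dividing C1q-low phagocytes. Fasn ran between 5.31 CPM in monocytes and 43.9 CPM in collagen-expressing cells of replicate 1, and between 4.57 CPM in activated dendritic cells and 34.4 CPM in dividing cDC2s of replicate 3. Scd2 was lowest in dividing C1q-low phagocytes of replicate 1, with 23.3 CPM, and in regulatory T cells of replicate 3, with 10.7 CPM.

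pDCs, the dendritic cells known for type I interferon secretion, were set against cDC2s, which present antigen to CD4 T cells. Of the cholesterol enzymes tested, 10 of 17 were higher in pDCs, and the fatty acid synthase gene was lower. Of 28 members tested, 12 were higher and 1 lower at an adjusted p under 0.05 (edgeR quasi-likelihood test, Benjamini-Hochberg over all genes), where 12.7% of 11192 genes were higher and 17.5% lower. The median log2 fold change was 0.56 over the members and -0.07 over all genes tested. The comparison was chosen after the levels had been seen. Here and below, shares over all genes belong to the edgeR counts at an adjusted p. A count by DESeq2, by an unadjusted p or by another setting, given without its own share, is no result about the members as a set.

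The higher members were 4 of 7 in the mevalonate arm (Acat2, Hmgcs1, Idi1 and Fdps), 6 of 10 tested from squalene on (Fdft1, Sqle, Lbr, Msmo1, Sc5d and Dhcr7), the regulator Insig1, and the desaturase Fads2. Dhcr7, the reductase that ends 1 branch of the pathway, had 118 and 53.4 CPM in pDCs, against 9.55 and 10.7 CPM in cDC2s. Its log2 fold change was 2.41 ± 0.39 (SE of the fit to 2 tumours, edgeR adjusted p = 1.41e-05). Here and below, the SE rests on a spread estimated over all classes of a fit and shared in part over genes. It is not the spread of the ratios of the 2 tumours, which can lie further apart. Msmo1, the sterol C4-methyl oxidase, had 126 and 191 CPM in pDCs, against 33.4 and 40.7 CPM in cDC2s (log2 fold change 1.92 ± 0.33). For both genes each pDC value lay above each cDC2 value.

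Fdps, which makes farnesyl pyrophosphate, had 192 and 312 CPM in pDCs, against 87.9 and 98.6 CPM in cDC2s (log2 fold change 1.26 ± 0.33). Sc5d, the sterol desaturase, had 51.8 and 66.9 CPM in pDCs, against 20.1 and 21.4 CPM in cDC2s (1.45 ± 0.33). Idi1 had a log2 fold change of 1.09 ± 0.32, Lbr, a sterol reductase of the nuclear envelope, of 1.03 ± 0.29, Insig1 of 0.89 ± 0.31 and the thiolase Acat2 of 2.01 ± 0.59.

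The levels of Hmgcs1 overlapped, with 37.0 and 78.5 CPM in pDCs, against 37.2 and 21.4 CPM in cDC2s (log2 fold change 1.12 ± 0.33, edgeR adjusted p = 0.0102). Its log2 ratio in replicate 1 alone was -0.0102, from 5 UMIs in pDCs. Sqle had 29.6 and 67.8 CPM in pDCs, against 27.7 and 22.9 CPM in cDC2s, and its ratio in replicate 1 alone was 0.09. Fdft1, squalene synthase, had 22.2 and 47.6 CPM in pDCs, against 14.3 and 7.86 CPM in cDC2s, with 0.60 in replicate 1 alone and 1.73 ± 0.38 in the fit. The pDC sum of replicate 1 held 11 cells and 135226 UMIs. Pmvk, Mvk, Mvd, Cyp51, Nsdhl and Hsd17b7, which did not pass the test, were below cDC2s in replicate 1 and above them in replicate 3. In replicate 1 alone and replicate 3 alone, the log2 ratios were 3.50 and 2.22 for Dhcr7, 1.23 and 2.46 for Acat2, 1.59 and 0.90 for Insig1, and 3.57 and 4.22 for Fads2. With every cell thinned to 3000 UMIs, from medians of 13038 and 14700 UMIs in pDCs, 4 members were called higher. The share of all genes called after thinning is not given.

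Among the fatty acid genes, Fasn had 7.40 and 6.73 CPM in pDCs, against 35.3 and 27.1 CPM in cDC2s (log2 fold change -2.43 ± 0.40, edgeR adjusted p = 1.43e-05). Fads2, the delta-6 desaturase, had 22.2 and 31.0 CPM in pDCs, against 0.955 and 0.714 CPM in cDC2s (4.65 ± 0.88), from 3 and 69 UMIs in pDCs. In the other 18 classes Fads2 reached at most 3.51 CPM, in collagen-expressing cells of replicate 1. Srebf2 had 163 and 118 CPM in pDCs, against 134 and 84.3 CPM in cDC2s, with a log2 fold change of 0.04 ± 0.20 that did not pass the test. Srebf1 (-0.17 ± 0.33), Scd2 (0.51 ± 0.29) and Fads1 (-0.26 ± 0.37) did not pass it either.

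**Figure D2:**
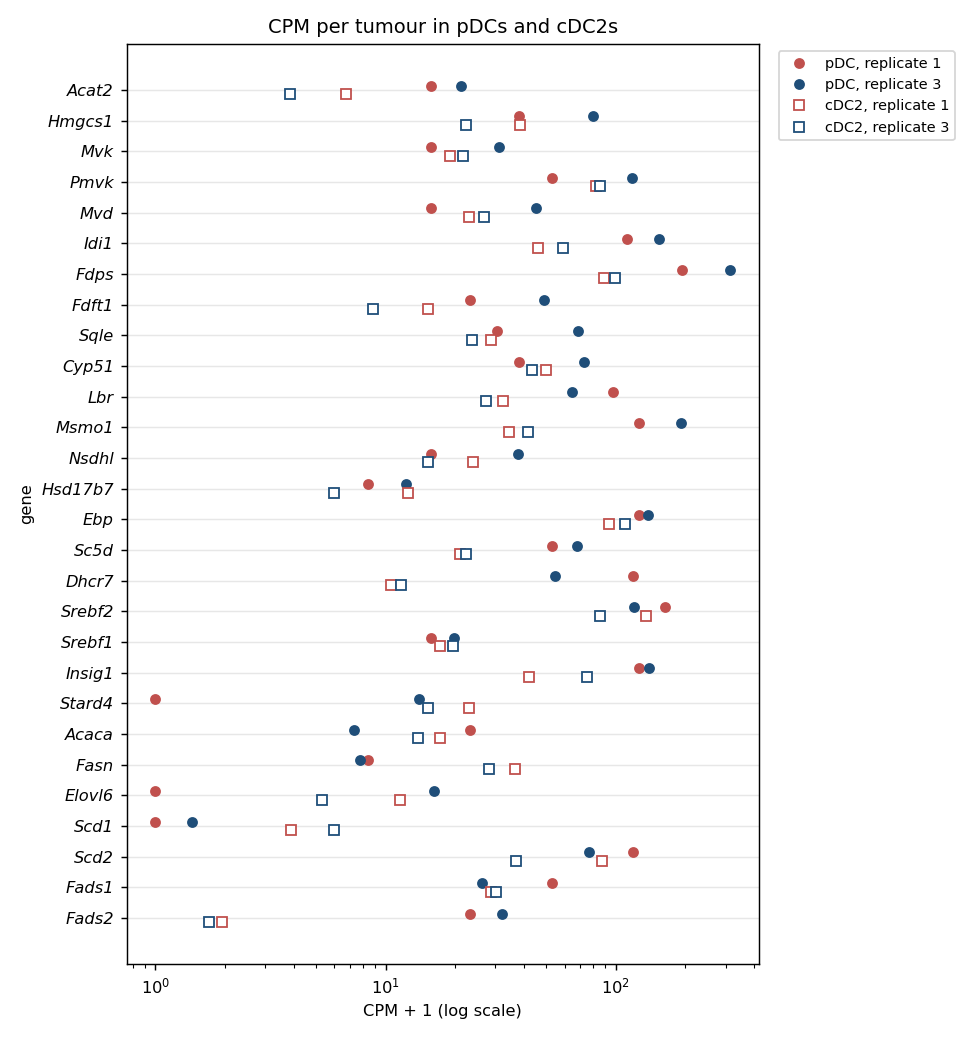
CPM + 1 on a log scale of the 28 members tested in pDCs (filled circles) and cDC2s (open squares), with 1 point a tumour (red, replicate 1; blue, replicate 3) and no error bars. Dhcr7, Msmo1 and Fads2 lie to the right in pDCs in both tumours and Fasn lies to the left, at 7.40 and 6.73 CPM in pDCs against 35.3 and 27.1 CPM in cDC2s.

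Other genes of the pathway gave a mixed picture in pDCs. Of 15 tested among other SREBP targets and synthesis genes, 1 was higher and 3 lower. The higher one was Scap, the escort protein of SREBPs, with 74.0 and 53.4 CPM in pDCs, against 22.9 and 19.3 CPM in cDC2s (log2 fold change 1.25 ± 0.28), and Acsl3, Elovl1 and Tmem97 were lower. Of 13 genes of sterol export, LXR and storage, called export and storage genes below, 2 were higher and 1 lower. The list also holds receptor and hydroxylase genes, such as Nr1h3 and Cyp27a1, so its counts do not measure export or storage as such. Npc1, which moves cholesterol out of lysosomes, had 377 and 223 CPM in pDCs, against 37.2 and 20.7 CPM in cDC2s (3.00 ± 0.29). Npc2, its soluble partner, was higher (1.10 ± 0.25), and Soat1, which esterifies cholesterol, was lower (-3.39 ± 0.46). Of 10 cell cycle genes 6 were lower in pDCs.

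Markers listed for other classes were found beside these results. The 5 Monocyte markers summed to 4437 CPM, with Chil3 and Vcan at 0, and 5312 CPM, with Chil3 at 0, in pDCs. In cDC2s they summed to 425 and 487 CPM. Both pDC sums lay above those of the monocyte class itself, so the sum of this list does not tell monocytes from pDCs. The 6 Macrophage markers summed to 96.1 CPM, with Adgre1 and Csf1r at 0, and 144 CPM in pDCs, against 515 and 636 CPM in cDC2s. The 5 cDC2 markers summed to 709.9 CPM, with Zbtb46 at 0, and 634 CPM in pDCs, against 1425 and 1460 CPM in cDC2s. The median mitochondrial share was 6.38% and 6.08% in pDCs, against 4.17% and 3.25% in cDC2s. Normalisation and the marker genes left out shift fitted log2 fold changes against plain CPM ratios by -0.328 here, averaged over the tumours. The part of these in the results was not tested.

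Activated dendritic cells, which carry Ccr7 for migration to lymph nodes, were compared with cDC2s in the same fit. The kinase gene Pmvk and the isomerase gene Idi1 were higher, and Ebp, Lbr, Fasn and Fads1 were lower. Of 28 members, 2 were higher and 4 lower in activated dendritic cells, where 6.32% of 11192 genes were higher and 6.8% lower, and the members' median log2 fold change was -0.30 against -0.14 for all genes. Pmvk, phosphomevalonate kinase, had 499 and 181 CPM in activated dendritic cells, against 81.2 and 84.3 CPM in cDC2s (1.92 ± 0.29, edgeR adjusted p = 2.19e-05). Its ratio alone was 2.60 in replicate 1 and 1.09 in replicate 3. Idi1 had 69.9 and 160.1 CPM in activated dendritic cells, against 44.9 and 57.8 CPM in cDC2s (1.24 ± 0.35), with 0.63 in replicate 1 alone.

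Both belong to the mevalonate arm, in which 2 of 7 genes were higher and 0 lower, with a median log2 fold change of 0.01. Its 7 genes summed to 639 and 576 CPM in activated dendritic cells, against 297 and 311 CPM in cDC2s. Without Pmvk and Idi1, the other 5 summed to 69.9 and 236 CPM in activated dendritic cells, against 171 and 169 CPM in cDC2s. The rest of the arm was thus lower in activated dendritic cells of replicate 1 and higher in those of replicate 3. From squalene on 2 of 10 genes tested were lower and 0 higher, with a median of -0.21. Its 12 genes summed to 145 and 252 CPM in activated dendritic cells, against 322 and 307 CPM in cDC2s. Ebp, the sterol isomerase, had 28.0 and 48.0 CPM in activated dendritic cells, against 92.6 and 109 CPM in cDC2s (log2 fold change -1.35 ± 0.26). Lbr (-1.61 ± 0.55), Fasn (-2.30 ± 0.58) and Fads1 (-2.19 ± 0.69) were lower as well, Fasn with 2 UMIs in each tumour.

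Over all genes, 707 were called higher and 761 lower in activated dendritic cells. With RLE size factors in place of TMM these were 872 and 558, the median over all genes being -0.01, and with DESeq2 939 and 461. Of the members, 3 were then higher and 2 lower with RLE factors, and the same numbers held with DESeq2. They were 1 and 0 in cells thinned to 3000 UMIs and 1 and 2 without the tumour as a block, and 1 was higher with free RNA subtracted, Pmvk in each case. Of 15 other SREBP targets and synthesis genes 1 was lower, Acly, and of 13 export and storage genes Npc2 was higher and Soat1 lower.

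Monocytes enter tumours from the blood and can become macrophages. Srebf2, Insig1 and a few sterol enzymes were lower in macrophages than in monocytes, and Abca1 and Apoe, which carry cholesterol out of cells, were higher. Of 26 members tested, 1 was higher and 6 were lower in macrophages, where 9.48% of 10389 genes were higher and 8.46% lower, and the members' median log2 fold change was -0.22 against 0.02 for all genes. The lower ones were 1 of 7 in the mevalonate arm, where the median was 0.04, 3 of 10 tested from squalene on, and 2 of 4 regulators. Srebf2 had 38.0 and 34.6 CPM in macrophages, against 72.8 and 66.6 CPM in monocytes (-0.91 ± 0.16, edgeR adjusted p = 0.000509). Cyp51, lanosterol demethylase, had 20.6 and 21.3 CPM in macrophages, against 44.8 and 40.9 CPM in monocytes (-0.98 ± 0.21). Insig1 had 43.7 and 43.1 CPM in macrophages, against 78.9 and 74.7 CPM in monocytes (-0.76 ± 0.25). For these 3 genes every macrophage value lay below every monocyte value.

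Lbr (-0.995 ± 0.192), Sqle (-0.73 ± 0.22) and Fdps (-0.62 ± 0.20) were lower in macrophages as well. Fads1 was the higher member, with 45.2 and 38.7 CPM in macrophages, against 18.2 and 14.8 CPM in monocytes (log2 fold change 1.44 ± 0.25, edgeR adjusted p = 0.000393). Srebf1 had 20.05 and 19.2 CPM in macrophages, against 21.2 and 21.5 CPM in monocytes, and did not pass the test (-0.10 ± 0.19). Scd2 had 57.9 and 26.7 CPM in macrophages, against 46.3 and 41.1 CPM in monocytes, which overlap. DESeq2 called 3 members lower, as did the fit without the tumour as a block, and 2 were lower in cells thinned to 3000 UMIs.

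Of 14 other SREBP targets and synthesis genes tested, 3 were lower in macrophages and 0 higher by edgeR, with 5 lower and 0 higher at an unadjusted p under 0.05. Among them was Acly, which makes cytosolic acetyl-CoA, with 48.1 and 41.1 CPM in macrophages, against 104 and 64.9 CPM in monocytes (log2 fold change -0.82 ± 0.15). Of 13 export and storage genes, 5 were higher. Abca1 had 352 and 139.9 CPM in macrophages, against 60.7 and 29.4 CPM in monocytes (2.43 ± 0.26), and Apoe (3.20 ± 0.37), Ch25h, Nr1h3 and Cyp27a1 were the others.

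**Figure D3:**
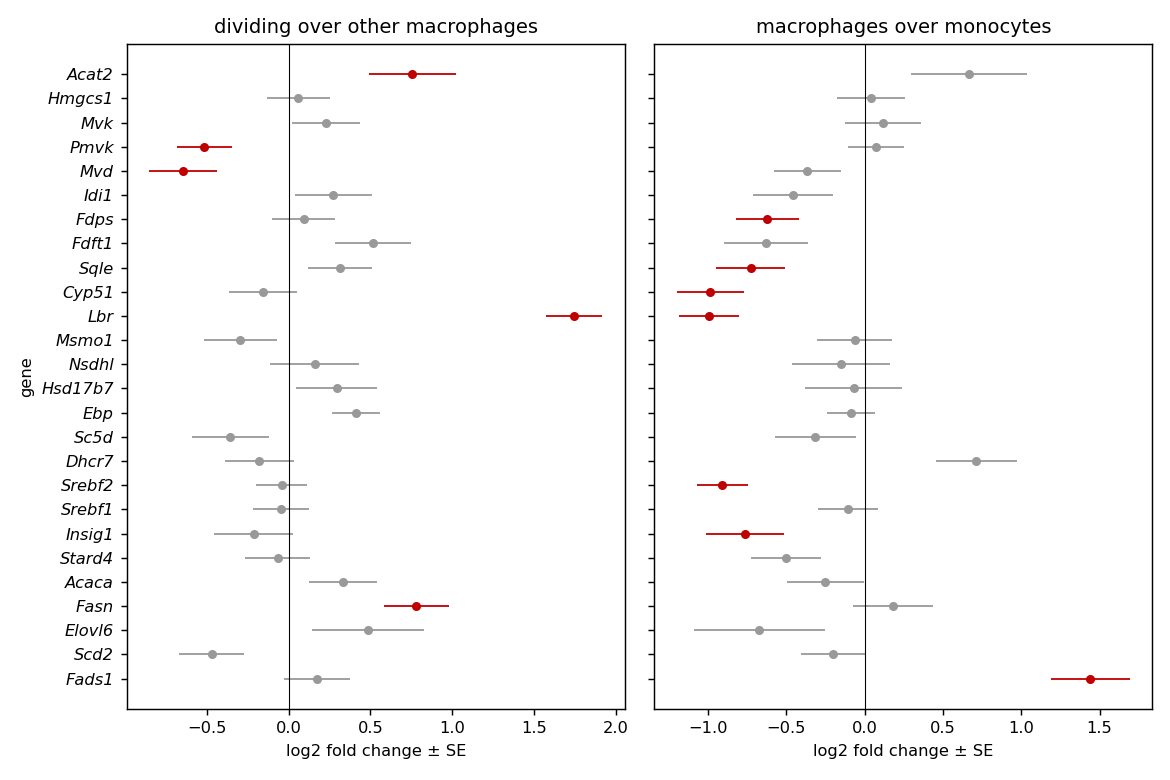
Log2 fold changes ± SE of the fit (2 tumours) of the 26 members tested, for dividing over other macrophages (left) and macrophages over monocytes (right). Red marks an adjusted p under 0.05 and grey the rest. Lbr stands at 1.74 on the left and -0.995 on the right, and Srebf2 at -0.91 and Cyp51 at -0.98 are red on the right and grey on the left.

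Within the non-dividing macrophages, subsets were taken as the top 10% by summed marker UMIs for each of 10 short marker lists, and a cell went to its highest rank. A subset is a range of a score and not a cell type. The next 5% below a limit held 136 cells in replicate 1 and 142 in replicate 3. Exceptions were the Atp6v0d2-Mmp9 list, with 0 in both tumours, and the Ifit1-Ifit3-Rsad2 list, with 71 in replicate 1. Under 10% of macrophages had any UMI of Atp6v0d2 or Mmp9. The top of that list therefore took in every cell with such a UMI, down to 0.169 and 0.127 UMIs per 10000. In all, 727 and 704 cells ranked in the top of several lists. Each subset was compared with the same remaining 945 and 1036 macrophages, so these comparisons share their reference. Most called members fell in 2 of the 10 subsets, those high in the C-type lectin genes Mgl2 and Asgr2 and those high in Spp1 (osteopontin). In each of these, 2 of 7 mevalonate enzymes, 3 of 12 enzymes from squalene on, 3 of 4 regulators or carriers and Fasn were higher.

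**Figure D4:**
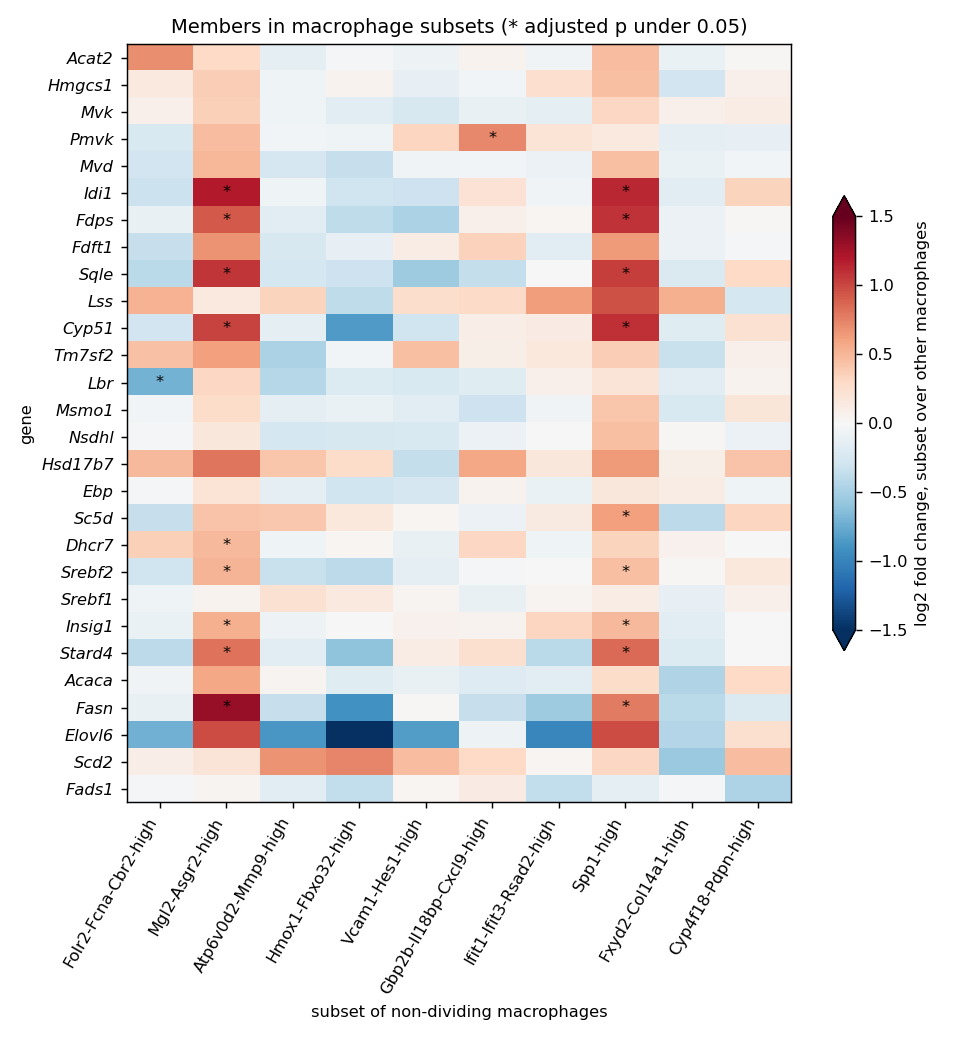
Log2 fold change of 28 members (rows) in 10 macrophage subsets (columns) over the other macrophages, from blue (lower) through white to red (higher); an asterisk marks an adjusted p under 0.05. The Mgl2-Asgr2-high and Spp1-high columns hold 9 asterisks each, and the other 8 columns hold 2 in all, Lbr in Folr2-Fcna-Cbr2-high and Pmvk in Gbp2b-Il18bp-Cxcl9-high.

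In Mgl2-Asgr2-high macrophages 9 of 28 members were higher and 0 lower by edgeR, where 2.72% of 10863 genes were higher and 2.31% lower. All 28 fold changes were above 0, with a median of 0.49 against 0.00 for all genes. At an unadjusted p under 0.05, 18 members were higher and 0 lower, and DESeq2 called 6 higher and 0 lower. The shares over all genes above are not those of these other counts. Idi1 had 26.7 and 46.3 CPM in Mgl2-Asgr2-high macrophages, against 12.1 and 20.7 CPM in other macrophages (log2 fold change 1.19 ± 0.16, edgeR adjusted p = 0.000231). Sqle had 18.7 and 21.8 CPM in Mgl2-Asgr2-high macrophages, against 9.49 and 10.4 CPM in other macrophages (1.07 ± 0.19). Cyp51 had 38.2 and 36.0 CPM in Mgl2-Asgr2-high macrophages, against 15.7 and 21.8 CPM in other macrophages (1.008 ± 0.204). Each of these subset values lay above both values of the other macrophages.

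Fasn gave the largest fold change of the called members, with 15.5 and 22.2 CPM in Mgl2-Asgr2-high macrophages, against 7.19 and 8.39 CPM in other macrophages (1.31 ± 0.21, edgeR adjusted p = 0.00132). Fdps had 67.7 and 89.8 CPM in Mgl2-Asgr2-high macrophages, against 39.8 and 45.2 CPM in other macrophages (0.92 ± 0.15). Stard4, a soluble sterol carrier (0.82 ± 0.21), Insig1 (0.54 ± 0.13), Srebf2 (0.50 ± 0.12) and Dhcr7 (0.48 ± 0.13) were the other higher members. Values that did not pass the test were 0.37 ± 0.15 for Hmgcs1 (adjusted p = 0.173), 0.06 ± 0.13 for Srebf1, 0.19 ± 0.21 for Scd2 and 0.04 ± 0.13 for Fads1.

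Genes outside the 30 changed in both directions there. Of 15 other SREBP targets and synthesis genes, 4 were higher and 0 lower by edgeR, with 5 higher and 1 lower at an unadjusted p under 0.05. Among them was Acly, with 56.4 and 58.8 CPM in Mgl2-Asgr2-high macrophages, against 47.2 and 37.8 CPM in other macrophages (log2 fold change 0.49 ± 0.13). Of 13 export and storage genes, 3 were lower. Abca1 had 175 and 57.7 CPM in Mgl2-Asgr2-high macrophages, against 338 and 133 CPM in other macrophages (-1.03 ± 0.18). Nr1h3 had 4.45 and 6.92 CPM in Mgl2-Asgr2-high macrophages, against 12.4 and 19.97 CPM in other macrophages (-1.47 ± 0.22). Mylip, an LXR target, was the other (-0.70 ± 0.16). For Abca1 the 175 CPM of the subset in replicate 1 lay above the 133 CPM of other macrophages in replicate 3, so that the order holds within each tumour only.

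In Spp1-high macrophages 9 of 28 members were higher and 0 lower by edgeR, where 4.19% of genes were higher and 3.18% lower. The median fold change was 0.45 against -0.01 for all genes, and 27 of 28 were above 0. At an unadjusted p under 0.05, 17 members were higher and 0 lower, and DESeq2 called 4 higher and 0 lower, again without shares over all genes. Fdps had 88.8 and 90.4 CPM in Spp1-high macrophages, against 39.8 and 45.2 CPM in other macrophages (log2 fold change 1.08 ± 0.15, edgeR adjusted p = 0.000695). Idi1 had 33.4 and 37.2 CPM in Spp1-high macrophages, against 12.1 and 20.7 CPM in other macrophages (1.13 ± 0.16). Cyp51 had 46.0 and 35.1 CPM in Spp1-high macrophages, against 15.7 and 21.8 CPM in other macrophages (1.10 ± 0.21). These subset values too lay above both values of the other macrophages.

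Sqle (1.03 ± 0.20), Stard4 (0.84 ± 0.21), Fasn (0.78 ± 0.23, edgeR adjusted p = 0.049), Sc5d (0.61 ± 0.18), Insig1 (0.49 ± 0.14) and Srebf2 (0.45 ± 0.12) were the other higher members. Of the 9 called in each of the 2 subsets 8 were shared, Dhcr7 being called in Mgl2-Asgr2-high and Sc5d in Spp1-high macrophages. Of 15 other SREBP targets and synthesis genes, 2 were higher and 0 lower by edgeR, with 6 higher and 0 lower at an unadjusted p under 0.05. Of 13 export and storage genes 5 were lower: Abca1 (-1.24 ± 0.18), Apoe (-1.20 ± 0.32), Cyp27a1 (-1.19 ± 0.23), Nr1h3 (-0.88 ± 0.21) and Mylip (-0.88 ± 0.17). Of 10 cell cycle genes, Mcm3, Mcm5 and Tyms were higher in Spp1-high macrophages, and none was called in Mgl2-Asgr2-high macrophages by edgeR, with 1 higher and 1 lower at an unadjusted p under 0.05.

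**Figure D5:**
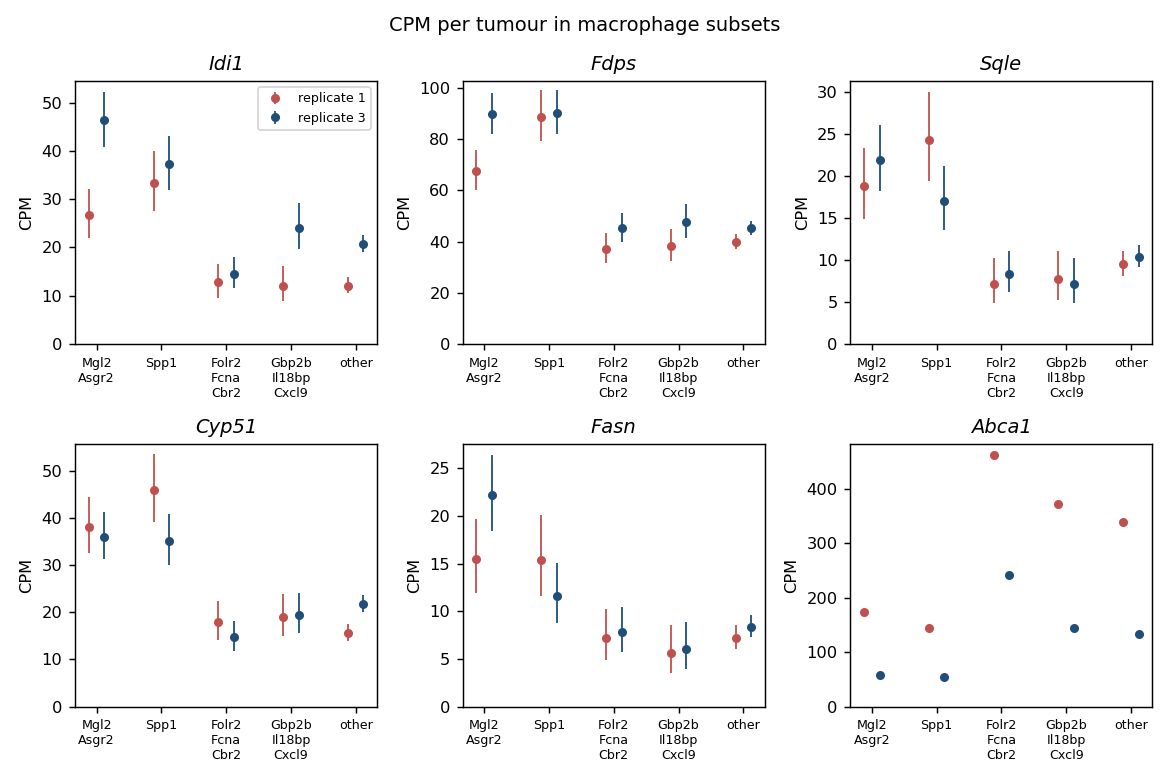
CPM of Idi1, Fdps, Sqle, Cyp51, Fasn and the exporter gene Abca1 in 4 macrophage subsets and the other macrophages, with 1 point a tumour (red, replicate 1; blue, replicate 3) and, for the members, 95% exact Poisson intervals. Fdps stands at 67.7 to 90.4 CPM in the Mgl2-Asgr2-high and Spp1-high subsets and at 39.8 and 45.2 CPM in other macrophages, while Abca1 lies lower in these subsets than in other macrophages of the same tumour.

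The calls in both subsets depended on the fit. Without the tumour as a block, 0 members were called in either subset by edgeR, where 0 of 10863 genes were called in either direction too. In cells thinned to 3000 UMIs 1 member was higher in each. Before thinning, median UMIs a cell were 21117 and 25980.5 in Mgl2-Asgr2-high and 20982.5 and 25989 in Spp1-high macrophages. The share of all genes called after thinning is not given, so the thinned counts do not set the members apart from other genes. Called members were 4 in Spp1-high macrophages with a mitochondrial limit of 5%, and 5 where subsets were the top 5%.

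Spp1-high and Mgl2-Asgr2-high macrophages were then compared directly, a comparison added after their results were seen. No member differed by edgeR or DESeq2, with 1 higher and 1 lower at an unadjusted p under 0.05, and 0.295% of genes were higher and 0.267% lower. The log2 difference was 0.16 ± 0.16 for Fdps and -0.06 ± 0.17 for Idi1. Fasn differed by -0.53 ± 0.24 (adjusted p = 0.398). Cyp27a1, a sterol hydroxylase, was the 1 export or storage gene called, lower in Spp1-high macrophages (-1.25 ± 0.25).

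Markers of other cells went with both subsets. The 5 Monocyte markers summed to 479 and 677 CPM in Mgl2-Asgr2-high and to 525 and 642 CPM in Spp1-high macrophages, against 161 and 451 CPM in other macrophages, and all 5 were detected throughout. The 5 cDC2 markers summed to 424 and 275 CPM in Mgl2-Asgr2-high and to 293 and 142 CPM in Spp1-high macrophages, against 174 and 87.3 CPM in other macrophages, again with all 5 detected. The 6 Macrophage markers summed to 16736 and 14934 CPM in Mgl2-Asgr2-high and to 14074 and 9502 CPM in Spp1-high macrophages, against 17274 and 16830 CPM in other macrophages. The 5 pDC markers summed to at most 2.49 CPM in either subset, against 2.64 and 6.13 CPM in other macrophages. The part of monocytes and cDC2s in the subset values was not tested.

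The subset high in Folr2, Fcna and Cbr2, markers of resident macrophages in many tissues, had 0 members higher and 1 lower, where 3.26% of genes were higher and 2.58% lower. DESeq2 gave the same numbers, and 2 members were higher and 2 lower at an unadjusted p under 0.05. Lbr had 13.0 and 10.9 CPM in Folr2-Fcna-Cbr2-high macrophages, against 20.4 and 17.3 CPM in other macrophages (log2 fold change -0.71 ± 0.17, edgeR adjusted p = 0.0195). Among 13 export and storage genes Ch25h, Abca1, Lpcat3 and Npc1 were higher. The Lbr call was lost without the block, in thinned cells and with a mitochondrial limit of 5%.

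In an added comparison, Mgl2-Asgr2-high macrophages were set against Folr2-Fcna-Cbr2-high macrophages. They had 14 members higher and 0 lower by edgeR, where 9.8% of genes were higher and 9.97% lower, the median log2 fold change being 0.63 against 0.00 for all genes. DESeq2 also called 14 higher and 0 lower, and 16 were higher and 0 lower at an unadjusted p under 0.05. Sqle had 18.7 and 21.8 CPM in Mgl2-Asgr2-high macrophages, against 7.18 and 8.36 CPM in Folr2-Fcna-Cbr2-high macrophages (1.47 ± 0.23, edgeR adjusted p = 0.000212). Idi1 (1.51 ± 0.19), Fasn (1.42 ± 0.25) and Elovl6, a fatty acid elongase (1.70 ± 0.38), were among the others. Without the block 5 were higher, and in thinned cells 1.

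Gbp2b-Il18bp-Cxcl9-high macrophages, chosen by genes that interferon gamma induces, had 1 member higher and 0 lower, where 1.08% of genes were higher and 0.0276% lower. DESeq2 gave the same numbers, with 2 higher and 1 lower at an unadjusted p under 0.05. The member was Pmvk, with 95.3 and 82.0 CPM in Gbp2b-Il18bp-Cxcl9-high macrophages, against 70.9 and 44.0 CPM in other macrophages (log2 fold change 0.72 ± 0.15, edgeR adjusted p = 0.0219). This call was lost without the block and in thinned cells. In an added comparison Spp1-high macrophages had 8 members higher and 1 lower than Gbp2b-Il18bp-Cxcl9-high macrophages, where 6.2% of genes were higher and 6.01% lower. Sqle (1.39 ± 0.25), Fasn (1.13 ± 0.30), Fdps (1.007 ± 0.168) and Cyp51 (1.004 ± 0.243) led the higher members, Pmvk was lower (-0.58 ± 0.16), and 8 of 13 export and storage genes were lower. Without the block 0 members were called there by edgeR.

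The other 6 subsets had 0 members called in either direction by edgeR and by DESeq2. They were those high in Atp6v0d2 and Mmp9, Hmox1 and Fbxo32, Vcam1 and Hes1, the interferon-induced Ifit1, Ifit3 and Rsad2, Fxyd2 and Col14a1, or Cyp4f18 and Pdpn. In that order, 0.0644%, 1.03%, 1.59%, 3.51%, 0.129% and 0.709% of genes were called higher there, and 0%, 0.12%, 1.74%, 0.138%, 0.138% and 0.129% lower. At an unadjusted p under 0.05, Hmox1-Fbxo32-high macrophages had 1 member higher and 8 lower, and the other 5 subsets had at most 1 higher and 3 lower. In Hmox1-Fbxo32-high macrophages Plin2, Abcg1, Mylip and Soat1 were higher among 13 export and storage genes, and in Vcam1-Hes1-high macrophages Mylip and Abca1 were. All genes called higher and lower were 112 and 13 in Hmox1-Fbxo32-high (89 and 33 by DESeq2), 173 and 189 in Vcam1-Hes1-high (160 and 270 by DESeq2), and 14 and 15 in Fxyd2-Col14a1-high macrophages (13 and 7 with RLE factors, 16 and 28 by DESeq2).

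Dividing macrophages were compared with the non-dividing ones. Lbr and Fasn were higher in them, and most cholesterol enzymes were not called. Of 26 members 3 were higher and 2 lower, where 11.8% of 10389 genes were higher and 8.93% lower, and the members' median log2 fold change was 0.13 against -0.05 for all genes. The shares of members called were thus near those of all genes. Lbr, the lamin B receptor, which also ties chromatin to the nuclear envelope, had 67.4 and 60.5 CPM in dividing macrophages, against 18.9 and 16.9 CPM in other macrophages (1.74 ± 0.17, edgeR adjusted p = 1.87e-07). Fasn had 18.3 and 13.4 CPM in dividing macrophages, against 7.51 and 9.05 CPM in other macrophages (0.78 ± 0.20). Neither gene's levels overlapped.

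Acat2 was higher at an adjusted p of 0.0498 by edgeR, and Pmvk (-0.52 ± 0.17) and the decarboxylase Mvd (-0.65 ± 0.21) were lower. Sqle, Idi1, Insig1, Cyp51 and Srebf2 did not pass the test, with adjusted p between 0.285 and 0.886. Tmem97 and Rdh11 were higher among 14 other SREBP targets and synthesis genes. Of 13 export and storage genes 8 were lower in dividing macrophages, among them Abca1 (-1.56 ± 0.24) and Apoe (-1.70 ± 0.35). Without the block 1 member was higher, Lbr, and the calls of Fasn and Acat2 were lost. The lower members were 0 in the fit of classes with at least 8 cells, without the block, with free RNA subtracted, with doublets kept and with a mitochondrial limit of 5%.

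All 10 cell cycle genes were higher in dividing macrophages, with a median log2 fold change of 2.51. Dividing cells were gated by other cell cycle genes, such as Mki67 and Top2a, so this follows from the gate. Median UMIs a cell were 31126 and 36508 in dividing macrophages, against 18312 and 22896 in other macrophages. The 6 Macrophage markers summed to 13802 and 11067 CPM in dividing macrophages, against 16840.3 and 16608 CPM in other macrophages. The part of depth in these values was not tested. In cells thinned to 3000 UMIs 1 member was higher and 1 lower.

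Dividing T and NK cells, 9 and 49 cells, had 2 of 28 members higher and 0 lower than CD8, conventional CD4, regulatory T and NK cells together, where 8.45% of 11192 genes were higher and 3.95% lower. The lineages differed between the tumours: the dividing cells were 6 NK cells, 2 other T cells and 1 regulatory T cell in replicate 1, and 15 CD8, 13 regulatory, 2 conventional CD4 and 6 other T cells with 13 NK cells in replicate 3. Other T cells were not in the non-dividing group, and the part of lineage in these values was not tested. DESeq2 called 3 higher and 0 lower, and 3 were higher and 0 lower at an unadjusted p under 0.05. Lbr was again higher, with 95.8 and 120.1 CPM in dividing T and NK cells, against 70.0 and 52.4 CPM in the non-dividing ones (log2 fold change 0.97 ± 0.20, edgeR adjusted p = 0.000748). Fdft1 was the other, with 20.8 and 16.4 CPM in dividing T and NK cells, from 5 and 21 UMIs, against 8.49 and 6.39 CPM in the non-dividing ones (1.45 ± 0.42). All 10 cell cycle genes were higher, which again follows from the gate. The SREBP target Tmem97 was higher as well (1.62 ± 0.35). In cells thinned to 3000 UMIs neither member was called, and the fitted value of Fdft1 was -4.77.

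Regulatory T cells, which carry Foxp3 and restrain other T cells, had 1 of 26 members higher and 0 lower than CD8 T cells, where 4.98% of 10389 genes were higher and 4.27% lower. It was Hsd17b7, the 3-ketoreductase of the sterol pathway, with 23.0 and 32.1 CPM in regulatory T cells, against 6.55 and 9.56 CPM in CD8 T cells (log2 fold change 1.35 ± 0.38, edgeR adjusted p = 0.0316). DESeq2 called 2 higher and 0 lower, and 5 were higher and 2 lower at an unadjusted p under 0.05. The fit of classes with at least 8 cells called 0 members higher, as did those without the block, with free RNA subtracted, with a mitochondrial limit of 5% and in thinned cells.

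C1q-low phagocytes, which carry macrophage markers with little C1q, were compared with macrophages after their levels had been seen. Of 26 members 1 was higher and 1 lower, where 5.25% of genes were higher and 5.68% lower. Elovl6 had 9.18 and 4.61 CPM in C1q-low phagocytes, against 2.77 and 2.72 CPM in macrophages (log2 fold change 1.11 ± 0.34, edgeR adjusted p = 0.0409). Fads1 had 23.7 and 27.8 CPM in C1q-low phagocytes, against 45.2 and 38.7 CPM in macrophages (-0.71 ± 0.21). Both calls were lost in the fit of classes with at least 8 cells and without the block. Of 13 export and storage genes 8 were lower, with Abca1 at -1.74 ± 0.24.

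Most of the members were lower in neutrophils, short-lived granulocytes, than in monocytes. Of 26 members tested 1 was higher and 17 were lower, where 18.7% of 10389 genes were higher and 23% lower. Fdps had 5.95 and 18.8 CPM in neutrophils, against 63.7 and 82.6 CPM in monocytes (log2 fold change -2.52 ± 0.48, edgeR adjusted p = 0.000279). Srebf2 had 10.9 and 28.1 CPM in neutrophils, against 72.8 and 66.6 CPM in monocytes (-1.76 ± 0.34). The 7 fatty acid genes summed to 9.92 and 9.38 CPM in neutrophils, from 10 UMIs and 1 UMI, against 85.0 and 77.7 CPM in monocytes. Normalisation and the marker genes left out shift fitted log2 fold changes against plain CPM ratios by 0.476 here, averaged over the tumours. Most of this shift lay in replicate 1, with a TMM factor of 0.639 in its neutrophils against 1.04 in its monocytes. In replicate 3 the factors were 1.06 and 0.995. The median was -1.76 over the members and -0.41 over all genes. DESeq2 called 9 members lower.

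Mvk, Nsdhl, Hsd17b7, Dhcr7 and Acaca were called lower with 0 UMIs in the neutrophils of both tumours. A count of 0 allows up to 2.97 CPM in replicate 1 and 28.1 CPM in replicate 3 (3 counts per library). In replicate 1 the monocyte level was 3.83 times that limit for Nsdhl, a sterol dehydrogenase. It was 3.06 times the limit for the acetyl-CoA carboxylase gene Acaca and 2.55 times for the mevalonate kinase gene Mvk. These plain CPM ratios leave out normalisation and the counting error of the monocytes, so they are no bounds. The 95% intervals of the monocyte levels began at 6.37, 4.70 and 3.64 CPM. In replicate 3 the limit lies above the monocyte levels of these genes.

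Plain CPM ratios of several called members in neutrophils differed between the tumours, with the same sign in both. They hold no normalisation, which shifted replicate 1 more than replicate 3, and its part in these differences was not tested. In replicate 1 alone and replicate 3 alone, the log2 ratios were -2.48 and -0.74 for Ebp, -3.22 and -2.08 for Fdps, -2.72 and -2.01 for Cyp51, -2.08 and -1.38 for Insig1, -2.38 and -1.22 for Mvd, and -2.30 and -1.01 for Hmgcs1. They were -2.63 and -1.21 for Srebf2, -2.16 and -4.49 for Srebf1, -3.67 and -4.92 for Idi1, -2.69 and -4.22 for Sqle and -2.99 and -5.39 for Scd2. The larger falls in replicate 3 are of genes with 0 UMIs in its neutrophils, where the ratio depends on the pseudocount of 1 CPM and is no bound. For Srebf1 and Sqle replicate 3 shows no direction, since the limit of 28.1 CPM lies above its monocyte levels of 21.5 and 17.7 CPM.

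Lbr was the higher member, with 144 and 159 CPM in neutrophils, against 47.8 and 30.1 CPM in monocytes (log2 fold change 2.65 ± 0.23, edgeR adjusted p = 4.06e-08). It made up 145 of the 225 cholesterol enzyme UMIs of neutrophils in replicate 1 and 17 of the 34 in replicate 3. Its plain log2 CPM ratio was 1.57 in replicate 1 alone and 2.37 in replicate 3 alone, both below the fitted value, which includes the normalisation. Without Lbr the other 18 cholesterol enzymes summed to 79.3 and 159 CPM in neutrophils. Neutrophil cells were shallow, with medians of 2613 and 2692 UMIs, against 12295 and 12931.5 UMIs in monocytes, and the neutrophil sum of replicate 3 held 35 cells. The part of depth in these values was not tested, since too few neutrophils were left after thinning.

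Each tumour is 1 sample, so differences between replicate 1 and replicate 3 have no test, and their intervals cover counting error only. In macrophages 8 members lay higher and 5 lower in replicate 1 with 95% exact Poisson intervals apart from those of replicate 3, and 17 overlapped. Of the 25 members with at least 5 CPM, 28% were apart and higher and 20% apart and lower in replicate 1, against 39.5% and 32.4% of 8750 genes, so intervals apart were common over all genes. Scd2 had 57.9 CPM (55.8 to 60.01) in replicate 1 macrophages, against 26.7 CPM (25.5 to 27.9) in replicate 3. Idi1 had 14.9 CPM (13.8 to 15.95) in replicate 1 macrophages, against 22.7 CPM (21.6 to 23.8) in replicate 3. Scd2 was the 1 member past a doubling there, where 4.65% of 8750 genes with at least 5 CPM passed a doubling in either direction.

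Scd2 was also apart and higher in replicate 1 in dividing macrophages, in cDC2s and in CD8 T cells. In dividing macrophages Acat2, Hmgcs1, Fdps, Sqle, Cyp51, Srebf2 and Insig1 were apart and higher in replicate 1 as well, and 22 members overlapped. The share of all genes with intervals apart was taken in non-dividing macrophages only. Members apart in other classes are therefore given as levels, with no result about the members as a set. Idi1 and Fdps, lower in replicate 1 in macrophages, were not lower there in dividing macrophages, where the intervals of Idi1 overlapped, with 27.3 against 22.1 CPM for Idi1 and 66.3 against 43.0 CPM for Fdps. In pDCs Dhcr7 was apart and higher in replicate 1, with 118 against 53.4 CPM, and Fdps was apart and lower, with 192 against 312 CPM.

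Over the 11 classes that reached 20 cells in both tumours, 22 sums in all, 5 genes outside the 30 had a log2(CPM + 10) most like the summed cholesterol enzyme level out of 8366 ranked. They were Rps6ka4 (Pearson r = 0.93), Arl8b (0.92), Ywhah (0.91), Syngr2 (0.89) and Ciita (0.89). The sums of a tumour share a library and classes differ in depth, so this is a description only.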

How the data were processed

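CD45+ cells of 2 tumours were profiled by 10x 3' v3 libraries. The UMI counts per gene and barcode were deposited by the authors, made with Cell Ranger 4.0 on mm10 per the submitters' processing notes. The matrices held 31055 gene features, and 3 code features were not used. Cells were kept with at least 1000 UMIs, 500 genes and at most 10% mitochondrial UMIs. Scrublet's own threshold called 0 doublets, so the top-scoring 0.8% per 1000 cells were removed (186 and 363 cells). Cells were gated by fixed markers, and UMIs were summed per class and tumour.

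Sums were tested with edgeR 4.0.16 (R 4.3.3; quasi-likelihood, TMM, filterByExpr) with the tumour as a block and Benjamini-Hochberg adjustment over all genes, called under 0.05. Gate and subset markers, YFP and RFP were left out of the fits. The 3 fits held 22 sums of 11 classes that reached 20 cells in both tumours (10389 genes), 38 sums of 19 classes with at least 8 cells (11192 genes) and 22 sums of 11 macrophage groups (10863 genes). The fit of classes with at least 8 cells gives the results for dividing T and NK cells, activated dendritic cells and pDCs. That fit and 5 comparisons (pDCs, C1q-low phagocytes and 3 between subsets) were chosen after seeing the data, beside 6 planned class and 10 planned subset comparisons. Scd1 and Fads2 were not tested in the subset fit, nor were they, Lss and Tm7sf2 in the fit of at least 20 cells. Lss and Tm7sf2 were not tested in the fit of at least 8 cells.

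The block rests on classes of 1 tumour coming from the same tumour. Deviations of sums of the same tumour correlated between 0.0377 and 0.685 over 55 pairs of classes (median 0.189), between -0.00906 and 0.647 over 171 pairs with at least 8 cells, and between 0.485 and 0.804 over 55 pairs of subsets. The fits were tested on simulated data with 100 genes changed at each size. For dividing macrophages 77% of 2-fold and 95% of 4-fold changes were recovered with 14 false calls, for dividing T and NK cells 32% and 63% with 0, and for the Folr2 subset 79% and 95% with 13.

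The members and the lists of other SREBP targets, export genes, cell cycle genes and markers were chosen with earlier results of these data known. Named are the members called in a comparison, up to 12 by size of fold change, called genes of those lists, and 10 members (Hmgcs1, Sqle, Idi1, Insig1, Srebf1, Srebf2, Scd1, Scd2, Fasn and Fads1) over the classes, by their extremes. Alternatives were DESeq2 1.42.0, RLE size factors, no low-count filter, no block, thinning to 3000 UMIs, doublets kept, 10% free RNA subtracted, doubled gates, a 5% mitochondrial limit, a relative UMI minimum, a top 5% for subsets and leaving out each tumour. Other steps used Python 3.11.15, scanpy 1.11.5 and matplotlib 3.10.9. Promoters came from RefSeq. Some genes of the list of other SREBP targets are counted but not reported here by name.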

Additional observations from a re-analysis of the deposited data

How the results depend on the processing

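Counts of members called are given as higher and lower. They stand without shares over all genes, so a change in them does not set the members apart from other genes. DESeq2 called 1 lower in dividing macrophages, 3 lower in macrophages against monocytes, 9 lower in neutrophils, 2 higher in regulatory T cells, 2 lower in activated dendritic cells and 4 higher in Spp1-high macrophages. RLE factors gave 2 higher in macrophages against monocytes and 2 lower in activated dendritic cells. With at least 8 cells, 0 were lower in dividing macrophages, 0 higher in regulatory T cells and 0 in either direction in C1q-low phagocytes. Thinning gave 1 and 1 in dividing macrophages, 2 lower in macrophages against monocytes, 0 higher in regulatory T and in dividing T and NK cells, 1 and 0 in activated dendritic cells, 4 higher in pDCs, 0 and 0 in C1q-low phagocytes, 1 and 0 in Spp1-high against Gbp2b-Il18bp-Cxcl9-high, 1 higher in Mgl2-Asgr2-high against Folr2-Fcna-Cbr2-high, 1 and 0 in Folr2-Fcna-Cbr2-high, 1 higher each in Mgl2-Asgr2-high, Hmox1-Fbxo32-high and Spp1-high, and 0 in Gbp2b-Il18bp-Cxcl9-high macrophages. Keeping doublets gave 0 lower in dividing macrophages and 2 lower in pDCs. Subtracting free RNA gave 0 lower in dividing macrophages, 0 higher in regulatory T cells, 1 higher in activated dendritic cells and 0 and 0 in C1q-low phagocytes. Doubled gates gave 1 and 1 in dividing macrophages, 11 lower in neutrophils, 2 lower in pDCs, 0 lower in Spp1-high against Gbp2b-Il18bp-Cxcl9-high, 2 lower in Folr2-Fcna-Cbr2-high and 1 lower in Hmox1-Fbxo32-high macrophages. A 5% mitochondrial limit gave 0 lower in dividing macrophages, 0 higher in regulatory T cells, 0 and 0 in C1q-low phagocytes, 5 higher in Spp1-high against Gbp2b-Il18bp-Cxcl9-high, 0 lower in Folr2-Fcna-Cbr2-high and 4 higher in Spp1-high macrophages. Without the low-count filter 2 were higher in regulatory T cells, 1 higher in Atp6v0d2-Mmp9-high, 1 and 3 in Hmox1-Fbxo32-high, and 1 lower each in Vcam1-Hes1-high, Fxyd2-Col14a1-high and Cyp4f18-Pdpn-high macrophages. A relative UMI minimum gave 1 lower in dividing macrophages, 1 higher in dividing T and NK cells and 0 higher in C1q-low phagocytes. A top 5% gave 2 higher in Spp1-high against Gbp2b-Il18bp-Cxcl9-high, 2 lower in Folr2-Fcna-Cbr2-high and 5 higher in Spp1-high macrophages. The cause of these moves was not tested.

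Without the replicate block, members called were 1 and 0 in dividing macrophages, 3 lower in macrophages against monocytes, 0 higher in regulatory T cells, 1 and 2 in activated dendritic cells, 0 and 0 in C1q-low phagocytes and in Spp1-high against Gbp2b-Il18bp-Cxcl9-high, 5 higher in Mgl2-Asgr2-high against Folr2-Fcna-Cbr2-high, 0 lower in Folr2-Fcna-Cbr2-high, and 0 higher in Mgl2-Asgr2-high, Gbp2b-Il18bp-Cxcl9-high and Spp1-high macrophages. Over all genes, higher and lower were then 0 and 0 in Mgl2-Asgr2-high (295 and 251 with the block), 0 and 0 in Spp1-high (455 and 345), 1 and 4 in Folr2-Fcna-Cbr2-high (354 and 280), 541 and 126 in dividing macrophages (1222 and 928), and 349 and 299 in macrophages against monocytes (985 and 879). In no other comparison did the block move the members' count by over 1.5 times.

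Values that changed sign were those of Fdft1 in dividing T and NK cells at -4.77 when thinned, and Hmgcs1 in pDCs against cDC2s, between -0.0102 without replicate 3 and 1.83 without replicate 1. With 1 tumour left there is no test, and called members give a plain log2 ratio. In neutrophils these plain ratios moved by over 1.5 times in 1 tumour for several members, with the same sign. The pDC fit could not be made with a 5% mitochondrial limit, nor the neutrophil fit when thinned or with the relative minimum, as too few cells were left. Depth limits what can be called in sums of few UMIs, among them B cells (48142 and 57460 UMIs), neutrophils of replicate 3 (106621), and pDCs (135226), activated dendritic cells (214524) and dividing T and NK cells (239977) of replicate 1.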
